A study of Cucumis sativus with 2 samples.

Results

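The genes described here are the cucumber homologues of isocitrate lyase (ICL) and of the enzymes that work beside it in fatty acid breakdown, the glyoxylate cycle and the first step from organic acids to sugar. They are the rows of the deposited reads table whose Arabidopsis homologue is one of 10 listed loci: ICL (AT3G21720), malate synthase (MLS, AT5G03860), PCK1 (AT4G37870), CSY2 (AT3G58750), CSY3 (AT2G42790), PMDH1 (AT2G22780), PMDH2 (AT5G09660), ACX1 (AT4G16760), MFP2 (AT3G06860) and KAT2 (AT2G33150). The rule found 12 genes among the 20700 of the table. They carry 8 of the loci, because no row is assigned to CSY2 or PMDH1. The deposited table gives each cucumber gene 1 Arabidopsis locus, so a locus with no row does not show that cucumber lacks such an enzyme. The set was chosen by the ratio of ventral to dorsal ICL reads, with enzymes of the same pathway added as partners, and the ratios below are therefore descriptions.

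Bending fruit of cucumber (Cucumis sativus) was sampled at day 2 after anthesis, with 1 poly(A) RNA library per fruit side, ventral and dorsal. Both single-end and paired-end Illumina sequencing are named in the labels, without the library each was used for. If the libraries were read differently, that difference and the fruit side cannot be told apart in any ratio below. The labels give no cultivar, treatment or number of pooled fruits for either side. The ventral library held 21863715 reads and the dorsal library 11893394. There are no replicates, so no difference between the sides has a replicate check, and the intervals given cover counting error only.

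Isocitrate lyase and malate synthase are the enzymes that set the glyoxylate cycle apart from the tricarboxylic acid (TCA) cycle. Isocitrate lyase splits isocitrate into succinate and glyoxylate, and malate synthase joins glyoxylate to acetyl-CoA, so that carbon from fat is kept and can be turned into sugar. The acetyl-CoA comes from beta-oxidation of fatty acids in the peroxisome. In cucurbits the pathway is best known from the cotyledons of germinating oilseeds, and also from senescing or sugar-starved tissue.

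ICL (Csa2G420990, chromosome 2) was present in the ventral library and almost absent from the dorsal library. It had 681 ventral and 5 dorsal reads, with exact Poisson intervals of 630.8 to 734.1 and 1.62 to 11.7 reads. Its level per gene length was 16.23 RPKM (reads scaled for gene length and library size, as deposited) in the ventral and 0.26 RPKM in the dorsal library. After scaling of the libraries by the trimmed mean of M values (TMM) it was 63.1-fold higher in the ventral library, a log2 ratio of 5.98 with a 95% counting interval of 4.75 to 7.61. Of the 17462 measured genes, those with at least 20 reads over both libraries, only 1 had a higher ratio. The ratios of the 37 measured genes with 0 dorsal reads rest on a floor of 3 reads, so the place of ICL depends on that floor. The dorsal count of ICL is small, and the deposited tables differ on it. At the gene length that the ventral values imply, the dorsal RPKM corresponds to 6.05 reads rather than 5, which gives a ratio of 52.1-fold and an interval of 4.58 to 7.15 on the log2 scale.

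MLS (Csa1G050360, chromosome 1), the other enzyme specific to the cycle, was also higher in the ventral library, but it was well expressed on both sides. It had 733 ventral and 146 dorsal reads, or 15.23 and 5.47 RPKM. The scaled ratio was 2.32-fold (log2 1.22, interval 0.96 to 1.48). The log2 ratio of ICL exceeded that of MLS by 4.76, with an approximate counting interval of 3.47 to 6.06 for the difference. In RPKM, ICL stood at 1.07 times MLS in the ventral library, whereas in the dorsal library MLS stood at 21.0 times ICL. The ventral library thus held both transcripts at like levels, and the dorsal library held MLS with few reads of ICL.

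**Figure D1:**
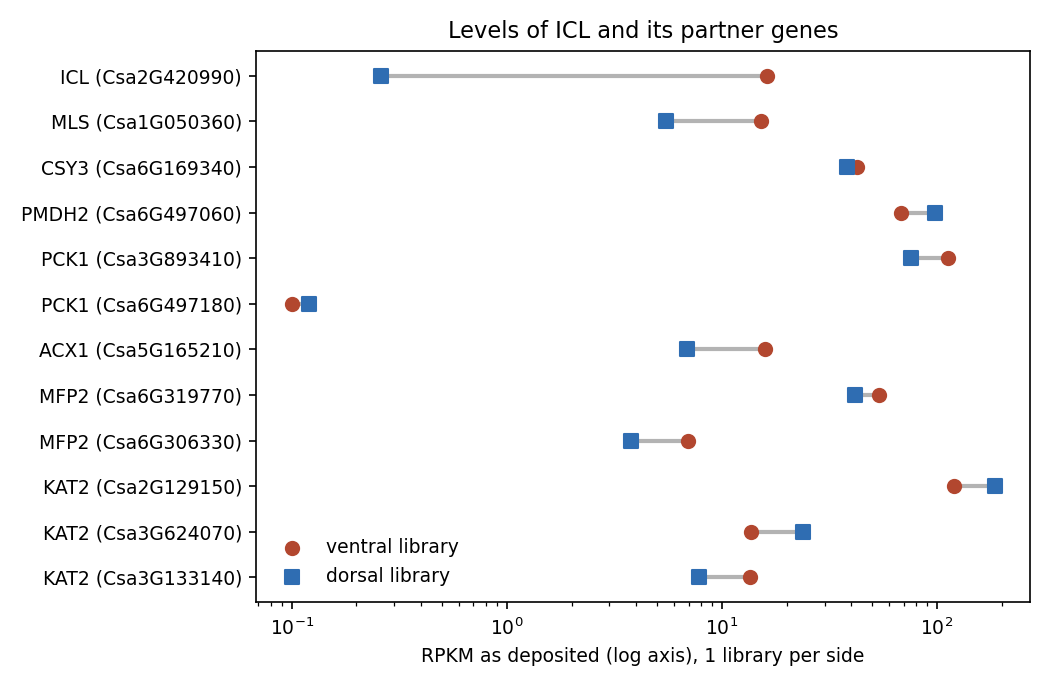
Deposited RPKM (horizontal log axis) of the 12 genes in the ventral library (circles) and the dorsal library (squares), 1 library per side, with the copies of a locus on separate lines. The distance between the points of ICL, 16.23 and 0.26 RPKM, exceeds that of every other gene shown.

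A gene is called here when its scaled reads differ by 2-fold or more in either direction and the 95% counting interval excludes equal levels. Of all 17462 measured genes, 13.2% were called ventral-high and 11.5% dorsal-high. Of the 11 partner genes of ICL, 10 were measured. MLS alone was called higher in the ventral library, 1 copy of KAT2 was called higher in the dorsal library, and 8 were not called. The median log2 ratio of the partners was 0.21, with 6 ratios above and 4 below 0, beside 0.01 over all measured genes. With total reads as the library scale, not TMM, 0.23 is added to every log2 ratio: MLS keeps its call at 1.45, ACX1 joins it at 1.18, and the KAT2 copy falls short of 2-fold at -0.82. The shares of partners called are near those of all genes, and the contrast is the one that led to the choice of the set.

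The remaining enzymes of the cycle were abundant on both sides. CSY3 (Csa6G169340), a citrate synthase of the peroxisome, which condenses acetyl-CoA with oxaloacetate, had 1852 and 923 reads, or 42.31 and 38 RPKM in the ventral and dorsal library. Its log2 ratio was -0.11 with an interval of -0.22 to 0.0095, so no difference was detectable at this depth, and the sign turns, to 0.13, with scaling by total reads. PMDH2 (Csa6G497060), a peroxisomal malate dehydrogenase, interconverts malate and oxaloacetate and in Arabidopsis serves chiefly to reoxidise the NADH of beta-oxidation. It had 2308 ventral and 1834 dorsal reads, or 68.21 and 97.69 RPKM. It was 1.72-fold higher in the dorsal library, a log2 ratio of -0.78 (interval -0.87 to -0.69). This direction is the opposite of that of ICL, and the ratio is short of 2-fold.

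PCK1 encodes phosphoenolpyruvate carboxykinase, which turns oxaloacetate into phosphoenolpyruvate on the way to sugar. The copy Csa3G893410 had 6330 and 2361 reads, or 112.12 and 75.35 RPKM, and a log2 ratio of 0.31 (interval 0.24 to 0.38). The copy Csa6G497180 had 4 ventral and 3 dorsal reads and was not measured. Nearly all of the PCK1 signal, 99.9% of the summed RPKM of the pair in ventral and 99.8% in dorsal RNA, therefore came from Csa3G893410. PCK1 was 6.91 times as high as ICL in ventral RPKM and 289.8 times as high in dorsal RPKM.

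The beta-oxidation enzymes were split between the sides, and even copies of the same locus differed. ACX1 (Csa5G165210), an acyl-CoA oxidase for medium to long acyl chains and the entry step of the spiral, had 810 ventral and 195 dorsal reads, or 15.87 and 6.89 RPKM. Its ratio of 1.92-fold (log2 0.94, interval 0.72 to 1.18) was next after MLS among the partners and short of 2-fold. MFP2 encodes the multifunctional protein that hydrates and oxidises the acyl chain. Its main copy, Csa6G319770, had 2582 and 1112 reads and a log2 ratio of 0.10 (interval 0.0027 to 0.21), and the lesser copy, Csa6G306330, had 417 and 125 reads and a log2 ratio of 0.63 (interval 0.34 to 0.93). The main copy supplied 88.5% of the RPKM of the pair in ventral and 91.7% in dorsal RNA. The ratios of the MFP2 copies differed by 0.52 (interval 0.22 to 0.83).

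KAT2, the thiolase that releases acetyl-CoA, is listed in the deposited table as PKT3 and has 3 copies. The main copy Csa2G129150 was the highest of all 12 genes on either side, with 4703 ventral and 4029 dorsal reads, or 119.98 and 185.2 RPKM. It was 1.85-fold higher in the dorsal library, at a log2 ratio of -0.89 (interval -0.95 to -0.83). Csa3G624070, with 656 and 630 reads, was the copy called higher in the dorsal library, 2.07-fold (log2 -1.05, interval -1.21 to -0.89). Csa3G133140 went the other way, with 515 and 166 reads and a log2 ratio of 0.52 (interval 0.27 to 0.78). The log2 ratio of Csa3G133140 exceeded those of Csa2G129150 and Csa3G624070 by 1.41 (interval 1.15 to 1.67) and 1.58 (interval 1.28 to 1.87), while the latter pair differed by 0.16 (interval -0.0042 to 0.33). Summed over the 3 copies, thiolase stood at 147.2 RPKM in the ventral and 216.8 RPKM in the dorsal library. How reads that match several copies were counted is not given in the sources used here, so values of single copies of KAT2, MFP2 and PCK1 are uncertain where their sequences are alike.

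**Figure D2:**
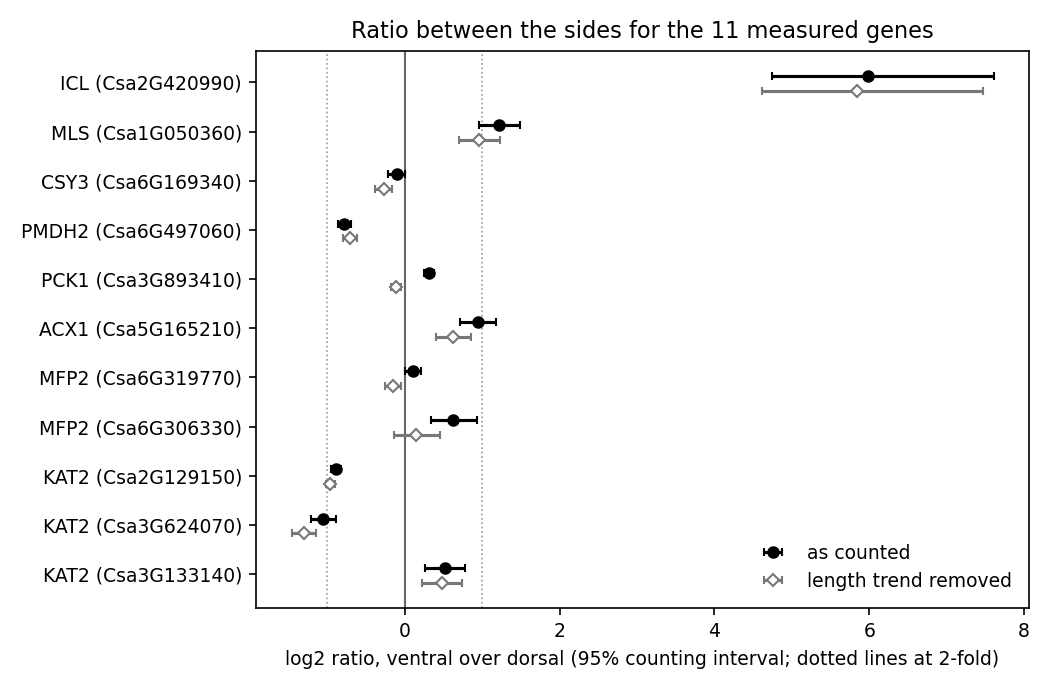
Log2 ratio of ventral over dorsal reads after TMM scaling (horizontal axis) for the 11 measured genes, as counted (filled circles) and with the trend of the ratio with transcript length removed (open diamonds). Bars are 95% counting intervals and dotted lines mark 2-fold; the interval of ICL starts at 4.75, and the highest partner ratio, of MLS, is 1.22.

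No partner came near the ratio of ICL. The differences from ICL on the log2 scale ran from 4.76 for MLS to 7.03 for the KAT2 copy Csa3G624070, and the lowest bound of any counting interval was 3.47. In order of ventral RPKM, ICL was at place 6 of 12, close to ACX1 (15.87 RPKM) and MLS (15.23 RPKM), and in order of dorsal RPKM at place 11, above only the scarcely expressed PCK1 copy. The order of the other genes changed less. Csa2G129150 of KAT2 came first on both sides, PCK1 and PMDH2 exchanged places 2 and 3, and the main MFP2 copy and CSY3 held places 4 and 5. Without replicates it cannot be said which neighbours in these orders differ beyond the spread between fruits.

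The ratio between these libraries rose with transcript length over all measured genes. Exonic length was taken from reads divided by RPKM. The median log2 ratio went from -0.42 in the fifth of genes with the shortest exonic length to 0.59 in the fifth with the longest, and the Spearman correlation was 0.39 over 17462 genes, which share both libraries. The partner genes were long, with a median exonic length of 2173 bp against 1464 bp for all measured genes. With the length trend removed, 11.2% of measured genes were called ventral-high and 8.08% dorsal-high. ICL (1903 bp) then kept a log2 ratio of 5.85, while MLS (2183 bp) was at 0.96, short of 2-fold, and ACX1 (2315 bp) at 0.62. The main PCK1 copy and the main MFP2 copy passed to the other side of 0, to -0.11 and -0.15. The median of the partners became -0.13, with no partner called higher in the ventral and 1, Csa3G624070 of KAT2 at -1.30, called higher in the dorsal library. The part of length in these ratios was not tested further.

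**Figure D3:**
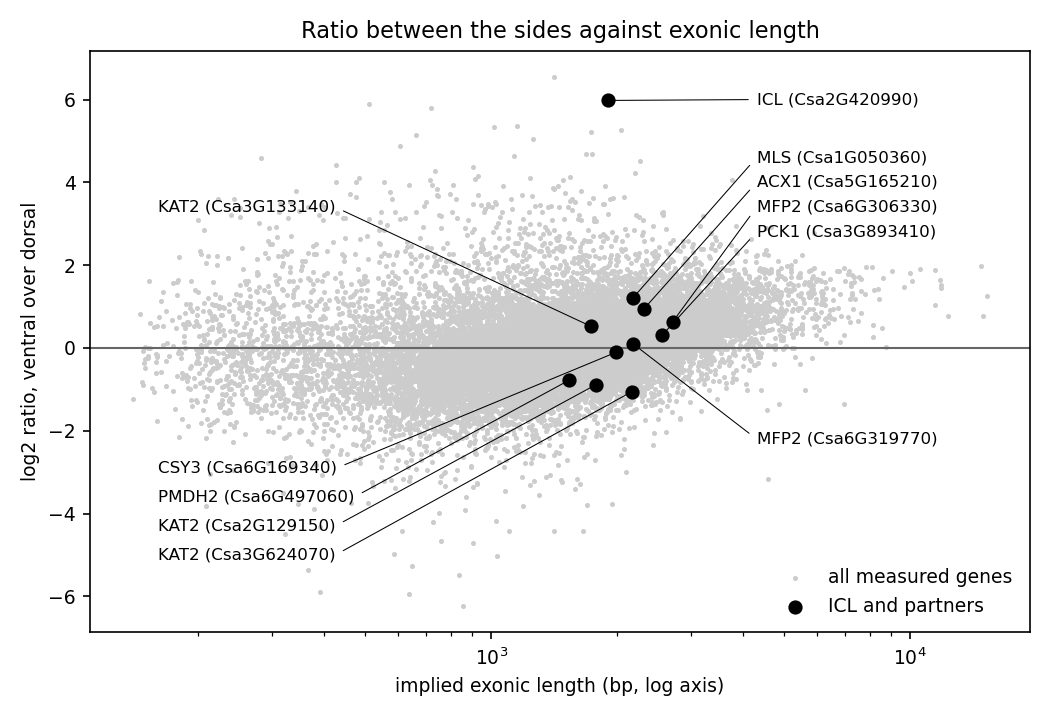
Log2 ratio of ventral over dorsal reads (vertical axis) against implied exonic length in bp (horizontal log axis) for all 17462 measured genes (grey) and for ICL and the 10 measured partners (black). The grey cloud rises with length, and ICL, at 5.98 and 1903 bp, lies above all but 1 of the grey points, while the partners lie within the cloud.

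Other genes of the pathway were taken from lists of Arabidopsis loci. The counts called stand beside 13.2% ventral-high and 11.5% dorsal-high of all measured genes. Of 22 further measured genes of peroxisomal beta-oxidation, 3 were called ventral-high (13.6%) and 5 dorsal-high (22.7%), and the median log2 ratio was 0.04. The ventral group held both homologues of PXA1, the transporter that brings fatty acids into the peroxisome. Csa4G097120 had 229 and 31 reads (3.42-fold) and Csa4G096620 had 855 and 175 reads (2.26-fold). OPCL1 (Csa4G653450), a ligase of jasmonate precursors, was 2.19-fold higher with 1601 and 339 reads. The dorsal group was led by homologues of enoyl-CoA isomerases, which prepare unsaturated fatty acids for breakdown. ECI2 (Csa3G141790) had 184 ventral and 430 dorsal reads and was 5.05-fold higher in the dorsal library, and ECI3 (Csa3G141800) had 25 and 73 reads and was 6.31-fold higher. These short genes have neighbouring identifiers and may share reads. A further ECI2 copy with more reads over both libraries (Csa3G141780, 594 and 242) was not called, at a log2 ratio of 0.18. SDRB (Csa7G238970), a short-chain reductase, was 2.05-fold higher in the dorsal library, and this ratio was short of 2-fold, at -0.67 on the log2 scale, with the length trend removed.

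Of 7 measured genes of oil mobilisation and oil bodies, 14.3% were called ventral-high and 0% dorsal-high, beside 13.2% and 11.5% of all measured genes. SDP1 (Csa4G358630) alone was called. It encodes the lipase that starts oil breakdown in Arabidopsis seedlings, had 428 ventral and 59 dorsal reads, and was 3.36-fold higher in the ventral library, with a log2 ratio of 1.75 as counted and 1.18 with the length trend removed. The median of the list was 0.17. Among 22 measured genes of the TCA cycle and of malate dehydrogenases outside the peroxisome, the median was 0.01. Of these, 2 were called ventral-high (9.09%) and 1 dorsal-high (4.55%). The ventral pair were 2-oxoglutarate dehydrogenase homologues, Csa5G181450 at 2.88-fold and Csa5G512860 at 2.13-fold, which are long and fell to 0.75 and 0.39 on the log2 scale with the length trend removed. The dorsal gene was a cytosolic malate dehydrogenase copy (Csa3G117980), 2.93-fold higher with 769 ventral and 1044 dorsal reads. Aconitase, which supplies the isocitrate that ICL cleaves, was not called, with log2 ratios of 0.73 for ACO1 (Csa6G507310) and -0.02 for ACO3 (Csa7G043630), genes picked out here for their place in the cycle after their values were seen.

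Of all measured genes, 13.2% were called ventral-high and 11.5% dorsal-high. Of 16 genes that handle phosphoenolpyruvate, malate and succinate, 1 was called ventral-high (6.25%) and 0 dorsal-high, with a median of -0.05. It was a copy of PPCK1 (Csa1G690150), a kinase of phosphoenolpyruvate carboxylase, 3.92-fold higher in the ventral library with 339 and 40 reads. The other PPCK1 copy (Csa3G135070) had more reads, 1789 and 1090, and was not called, at a log2 ratio of -0.40. Of 24 genes of photorespiration and glyoxylate use, 1 was called ventral-high (4.17%) and 5 dorsal-high (20.8%), with a median of -0.39. The ventral one was a glycerate kinase homologue (Csa7G435550), 2.41-fold higher. Foremost on the dorsal side were SHM1 (Csa6G497310), a serine hydroxymethyltransferase, 3.64-fold higher, the hydroxy-acid oxidase HAOX2 (Csa3G645970), 2.62-fold, and a hydroxypyruvate reductase homologue (Csa7G446960), 2.43-fold. The reductase was at -0.98 on the log2 scale, and not called, once the length trend was removed. Of 23 peroxisome biogenesis genes none was called in either direction, and their median was -0.04, with log2 ratios from -0.93 to 0.86; with total reads as the scale 2 were called ventral-high, and with the length trend removed 1.

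Lists for states in which ICL is known to be expressed did not move as 1 group. Of 10 measured senescence genes, the median log2 ratio was 0.66. Of these, 3 were called ventral-high (30%, beside 13.2% of all measured genes) and 0 dorsal-high (beside 11.5%). The 3 were the transcription factor genes WRKY53 (Csa3G119700), 12.7-fold, NAP (Csa5G606310), 7.96-fold with 172 and 10 reads, and ORE1 (Csa5G637160), 2.75-fold with 95 and 16 reads. A further WRKY53 copy (Csa7G328830), with 766 and 184 reads, was not called, at a log2 ratio of 0.95. With total reads as the scale, or with the length trend removed, it passed 2-fold and the senescence list had 4 ventral-high calls. The chlorophyll breakdown genes NYC1, SGR1, PAO and PPH in that list had log2 ratios of 0.72, 0.47, 0.60 and 0.07 for their measured copies and were not called. Of 21 genes of amino acid breakdown and of the response to darkness or sugar starvation, the median was -0.19. In this list 0 were called ventral-high and 4 dorsal-high (19.0%). These included a GLN1-1 homologue (Csa3G304140), a glutamine synthetase, with 6451 ventral and 8958 dorsal reads and a log2 ratio of -1.58, GDH1 (Csa4G192110), a glutamate dehydrogenase, 2.17-fold higher in the dorsal library, and DIN10 (Csa1G229500), listed as a raffinose synthase, 2.08-fold. With total reads as the scale 1 gene of this list was called dorsal-high, as GDH1, DIN10 and ASN1 fell short of 2-fold, and 1 ventral-high. The further beta-oxidation genes then had 5 ventral-high and 2 dorsal-high calls, with SDRB, PNC1 (Csa6G425150) and ECI2 (Csa3G141770) short of 2-fold. The added ventral-high calls were LACS6 (Csa3G149320) and the other PNC1 copy (Csa2G021690), at log2 ratios of 1.23 and 1.05.

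**Figure D4:**
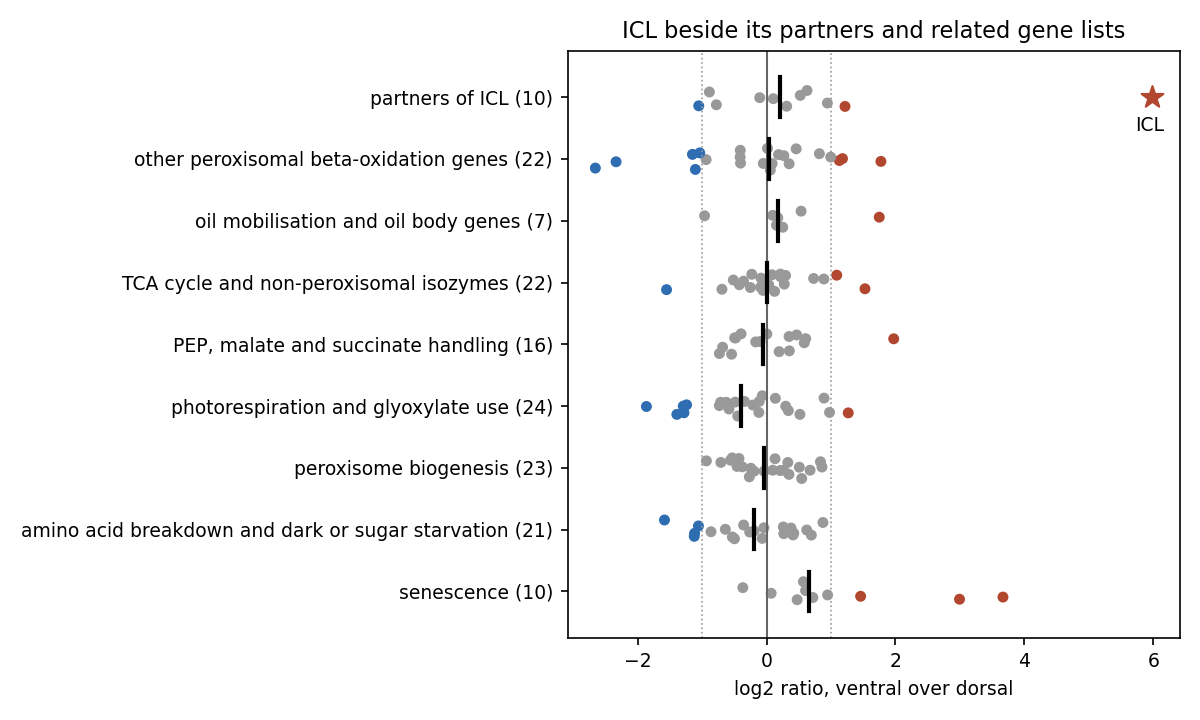
Log2 ratio of ventral over dorsal reads (horizontal axis) for the measured genes of each list, with the number measured in brackets. Points are genes, coloured where called higher in the ventral (red) or dorsal (blue) library and grey where not called, black bars are list medians, the vertical line is the median of all measured genes and dotted lines mark 2-fold; ICL, the star at 5.98, lies beyond every gene of these lists.

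Markers of other tissues were set beside ICL, since either strip of fruit could hold them. In bulk tissue, fewer cells of a type and less RNA per cell cannot be told apart. The RPKM sums below are not TMM-scaled and lean to the ventral side. The median log2 ratio of measured genes was 0.27 in RPKM, against 0.01 with TMM. The 7 seed maturation genes summed to 16.3 RPKM in the ventral and 6.37 RPKM in the dorsal library. Of 3 measured, 1 was called higher in the ventral library (33.3%, beside 13.2% of all measured genes) and 0 in the dorsal library (beside 11.5%). The gene called was a homologue of the seed storage globulin CRU2 (Csa3G386310), with 344 and 50 reads and a 3.19-fold ratio. Its level, 9.93 and 2.63 RPKM, was the highest among the 7 genes on both sides. The other CRU2 copy (Csa3G386810) had 1 ventral and 4 dorsal reads. CRA1 (Csa3G384800), with 93 and 38 reads, and EM6 (Csa4G311230), with 20 and 3 reads, were not called, at log2 ratios of 0.18 and 1.63. EM6 was called ventral-high with total reads as the scale and with the length trend removed. The regulators LEC2 and FUS3 had at most 3 reads in either library, and SESA1, a seed storage albumin, had 0 ventral reads and 1 dorsal read. The 13 pollen marker genes summed to 102.0 RPKM in the ventral and 89.7 RPKM in the dorsal library. Of 7 measured, 3 were called higher in the ventral library (42.9%, beside 13.2% of all measured genes). They were ACA9 (Csa7G447850), 2.40-fold, ANX1 (Csa5G640560), 2.39-fold, and ANX2 (Csa2G010280), with 26 and 2 reads. Only ROPGEF12 (Csa3G483820), with 15 and 20 reads, was called higher in the dorsal library (14.3%, beside 11.5%). The median log2 ratio of the 7 was -0.68, with 3 above and 4 below 0. HAP2 (Csa6G282700), the highest at 46.22 and 61.83 RPKM, was not called, at a log2 ratio of -0.68. After removal of the length trend ACA9 was at 0.57 on the log2 scale and not called, and the pollen list had 2 calls in each direction. The 3 SKS11 copies, of a pollen wall oxidase family, had at most 1 read in either library. The pollen genes with 0 reads numbered 1 in ventral and 4 in dorsal RNA, and these 4 had at most 9 ventral reads. Of all 20700 genes, 20249 had reads in the ventral library and 19528 in the dorsal library, which held fewer reads. The 6 ovule marker genes summed to 47.3 and 50.9 RPKM, and none of the 4 measured was called. The 17 epidermis and vascular marker genes summed to 6486 and 7367 RPKM, of which the 7 copies of the phloem lectin PP2-A1 made up 97.6% and 98.3%; the other 10 genes summed to 154.5 and 126.3 RPKM. Of 15 measured, 2 (13.3%) were called higher in the ventral library, a PP2-A1 copy (Csa1G703060) at 6.22-fold and ATML1 (Csa1G064670) at 2.67-fold. Another 5 (33.3%) were called higher in the dorsal library. They were led by the xylem peptidase XCP1 (Csa7G027790), 3.44-fold, another PP2-A1 copy (Csa4G500830), 3.02-fold, and PDF2 (Csa6G514870), 2.40-fold. With total reads as the scale this list had 3 calls in each direction. The part of tissue composition in the ICL ratio was not tested.

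None of the 5 genes nearest to ICL in level was a partner. Nearness was the distance between points of log2(RPKM + 0.1) in the 2 libraries, over 7758 measured genes with a symbol, so it rests on 2 values a gene. The nearest was ATACS6 (Csa4G049610), an ACC synthase of ethylene synthesis, with 14.77 and 0.32 RPKM, at a distance of 0.26. It was followed by the metallothionein MT3 (Csa3G105950) with 22.93 and 0.32 RPKM, the AP2/ERF factor ABR1 (Csa6G486790) with 7.83 and 0.19 RPKM, NAC090 (Csa1G165230) with 9.46 and 0.58 RPKM and DREB1B (Csa5G174570) with 10.01 and 0.65 RPKM. The dorsal levels of these 5 genes rest on 8, 2, 2, 5 and 6 reads in the order named, so their places are uncertain. Of the partners the nearest was the lesser MFP2 copy at place 1033, and MLS was at place 1637. The partners were only 10 of the 7758 genes ranked, so 5 nearest genes without a partner say little about the pathway. The set was chosen by the ICL ratio, and these places are a description.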

How the data were processed

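Poly(A) RNA was sequenced from 1 ventral and 1 dorsal library; the labels' protocols describe strand-specific libraries. The authors deposited whole-number read counts per gene without normalization (20700 genes) and RPKM values scaled for length and depth (20815 genes), per the file headers. Per the submitters' processing notes the tools were TopHat2 and edgeR. Not given in the sources used here are the genome build, the counting tool and the use of strand. The deposited counts may be rounded down: over 660 genes with 5 to 99 dorsal reads and a ventral RPKM of at least 10, the dorsal RPKM implied a median of 0.40 reads more than deposited.

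Scaling used TMM (edgeR 4.0.16, R 4.3.3) over genes with at least 20 reads, giving a depth ratio of 2.16, ventral over dorsal. Ratios carry exact conditional binomial (Clopper-Pearson) 95% intervals, and differences between genes carry Wald intervals from the 4 counts. Wald intervals are symmetric, and so only approximate for differences from ICL, which had 5 dorsal reads. Both kinds of interval cover counting error only. They treat reads as independent, and may be too narrow, as amplified copies are not independent molecules. For genes with 0 reads in a library the floor was 3 reads. The length trend was a lowess curve (fraction 0.3, statsmodels 0.14.6) that left the median of all genes in place. Exonic length was set so that the top of implied over listed length came to 1. The procedure was tested on simulated data. Genes were named by rule: all members, up to 3 called genes per list and direction, taken in order of the inner bound of the interval, and the 5 genes nearest to ICL. The members and lists were chosen with earlier results of these data known. Alternatives were scaling by total reads or DESeq2 1.42.0 size factors, RPKM ratios, read minimums of 1 and 100, a 99% interval and length-trend removal. No reference sequence of these genes was used here.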

Additional observations from a re-analysis of the deposited data

How the results depend on the processing

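No paired analysis was possible because there is a single library for each side. Under the alternatives that can change it, the ICL ratio ran from 5.70 to 6.21 on the log2 scale, within its counting interval. That interval is wide because it rests on 5 dorsal reads, so staying within it is a weak check. The value of 5.70, from the dorsal reads that the RPKM implies, was added after the data were seen. The smallest difference between ICL and a partner ran from 4.49 to 4.89. The partner median of 0.21 was 0.44 with total reads, 0.47 with RPKM ratios, -0.13 with the length trend removed and 0.10 with a minimum of 1 read. Scaling by total reads and the RPKM ratios moved the median of all measured genes from 0.01 to 0.24 and 0.27. Total reads add the same 0.23 to every log2 ratio, so that setting cannot move the partner median relative to all genes. Removal of the length trend holds the median of all genes at 0.01, and the partner median then lay below it. Partners called higher in the ventral library numbered 1 as counted, 2 with total reads, 2 with RPKM ratios (ACX1 joined MLS in both) and 0 with the length trend removed. Those called higher in the dorsal library numbered 1 as counted and 0 with total reads and with RPKM ratios. Over all genes 1283 and 1195 were called higher in the dorsal library with total reads and RPKM ratios, against 2005, and the ventral counts were 3336 and 3421 against 2304. DESeq2 size factors, a minimum of 100 reads and the 99% interval changed no partner count. With total reads and RPKM ratios, CSY3 was above 0, at 0.13 and 0.15. The dorsal count of ICL, 5 reads, limits the precision of its ratio.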
